A study of Mus musculus with 28 samples.

Results

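Of the 19400 autosomal H3K4me3 peaks in the D1 ICuRuS list, 994 (5.12%) shared no base with any peak in the A2a list. They were chosen by measured values, namely a call in 1 list and no call in the other, so their strength and their distance to A2a peaks are given as a description and were not tested. The other 18406 D1 peaks on chromosomes 1 to 19 are called shared peaks below. In the opposite direction, 3871 of the 21819 autosomal A2a peaks overlapped no D1 peak. The D1 list held 20080 peaks on all chromosomes. A D1-alone peak is a region where no A2a peak passed the caller's threshold, which is not the same as a region without A2a reads.

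ICuRuS joins INTACT, the capture of nuclei that carry a Cre-dependent tag, with CnR, in which an antibody directs micrococcal nuclease to chromatin with a given hPTM. D1 nuclei came from the striatum of Sun1-sfGFP;Drd1-cre mice and A2a nuclei from Sun1-sfGFP;A2a-cre mice, both on a C57BL/6J background, of both sexes, about 8 weeks old, with no treatment named in the labels. The mice of both groups carried the Sun1-sfGFP nuclear tag, and each group holds whatever striatal nuclei the Drd1 or adenosine 2a receptor driver had marked. The series has 28 samples. The 4 lists used here pool 8 of them, 2 replicates per list, with H3K4me3 antibody from Abcam and H3K27me3 antibody from Active Motif. The labels of the D1 H3K27me3 libraries disagree, with A2a as the source and D1 in the title and the cell type, and these libraries were treated as D1, on which every H3K27me3 value given for D1 rests. Because replicates were pooled before calling, the lists hold no spread between mice and no comparison across mice could be tested. The lists hold no library totals, so the depth behind each list is unknown. Intervals in parentheses after a share are 95% Wilson intervals, and they cover counting error only.

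H3K4me3 is laid down around the start sites of active genes and of genes held ready for activation, most strongly at CpG-rich promoters, and in weaker, narrower form at some enhancers. H3K27me3 is laid down by Polycomb repressive complex 2 over silent developmental genes. In the striatum, D1 neurons form the direct pathway and A2a neurons the indirect pathway, and both are GABAergic projection neurons that share most of their active promoters.

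The reference sequence under 6 of the stronger D1-alone peaks gives examples of the DNA they covered. Each is the 300 bp of mm10 (GRCm38, RefSeq) around the summit, read on the plus strand, with every CpG in capitals. Ebf1 and Isl1 encode transcription factors of direct pathway neurons. The region named for Gm47914 is the strongest D1-alone peak between 10 and 100 kb of a TSS. Ski has the highest CpG content of the windows named here. Gm13991 stands for peaks beyond 100 kb of a TSS, and Gm11168 for repeated sequence.
Ebf1 (chr11:44618263-44618562): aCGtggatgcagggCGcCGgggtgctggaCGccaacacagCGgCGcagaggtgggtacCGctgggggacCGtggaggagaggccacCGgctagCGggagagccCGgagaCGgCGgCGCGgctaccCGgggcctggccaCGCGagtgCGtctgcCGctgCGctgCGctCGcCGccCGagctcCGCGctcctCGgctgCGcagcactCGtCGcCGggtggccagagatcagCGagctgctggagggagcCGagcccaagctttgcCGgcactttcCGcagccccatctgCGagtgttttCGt
Isl1 (chr13:116308791-116309090): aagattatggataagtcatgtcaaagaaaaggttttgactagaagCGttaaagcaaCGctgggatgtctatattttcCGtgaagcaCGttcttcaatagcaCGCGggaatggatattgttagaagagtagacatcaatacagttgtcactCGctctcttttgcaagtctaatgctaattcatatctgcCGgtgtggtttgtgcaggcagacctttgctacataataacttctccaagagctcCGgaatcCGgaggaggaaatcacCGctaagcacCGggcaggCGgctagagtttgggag
Gm47914 (chr13:116705884-116706183): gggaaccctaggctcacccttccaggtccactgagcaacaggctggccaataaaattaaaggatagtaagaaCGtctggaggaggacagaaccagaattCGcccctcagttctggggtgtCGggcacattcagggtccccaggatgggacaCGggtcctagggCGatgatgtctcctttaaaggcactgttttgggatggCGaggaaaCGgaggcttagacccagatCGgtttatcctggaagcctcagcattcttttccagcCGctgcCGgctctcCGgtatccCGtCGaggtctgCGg
Ski (chr4:155223076-155223375): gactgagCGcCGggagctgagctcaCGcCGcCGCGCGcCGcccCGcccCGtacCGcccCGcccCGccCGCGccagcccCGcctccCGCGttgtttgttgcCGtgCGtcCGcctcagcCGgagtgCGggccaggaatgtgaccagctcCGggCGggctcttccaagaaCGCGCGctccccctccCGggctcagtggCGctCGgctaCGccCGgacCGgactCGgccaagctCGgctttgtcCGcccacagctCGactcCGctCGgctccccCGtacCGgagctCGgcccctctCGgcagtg
Gm13991 (chr2:116397102-116397401): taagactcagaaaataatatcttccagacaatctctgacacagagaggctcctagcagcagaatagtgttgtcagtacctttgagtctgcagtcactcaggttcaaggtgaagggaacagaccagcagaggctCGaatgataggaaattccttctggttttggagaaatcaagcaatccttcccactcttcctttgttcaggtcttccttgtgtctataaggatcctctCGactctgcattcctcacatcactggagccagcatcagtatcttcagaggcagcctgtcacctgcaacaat
Gm11168 (chr9:3005782-3006081): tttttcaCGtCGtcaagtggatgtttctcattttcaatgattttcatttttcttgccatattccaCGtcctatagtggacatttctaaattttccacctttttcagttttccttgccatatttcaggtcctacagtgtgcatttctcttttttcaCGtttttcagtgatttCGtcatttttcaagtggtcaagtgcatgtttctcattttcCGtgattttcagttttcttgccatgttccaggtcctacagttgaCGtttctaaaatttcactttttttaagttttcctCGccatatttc
The Ebf1 window held 38 CpG and the Ski window 44, whereas the Isl1 window held 13, the Gm47914 window 14, the Gm11168 window 8 and the Gm13991 window 2. The Ebf1 window includes 50 bases of coding sequence. The other windows overlap no annotated exon. These 6 peaks were among the stronger ones, and over all 994 D1-alone windows the median was 4 CpG (quartiles 2 and 7).

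D1-alone peaks were mostly weak and narrow. Their median −log10 q, the significance that the peak caller gave to each peak over its local background, was 5.42 (quartiles 4.07 and 7.61, range 2.03 to 58.4), against 54.2 for shared D1 peaks. The fold enrichment, the ratio of reads at the summit to that background, had a median of 3.80 against 6.50. The median width was 323 bp against 1214 bp. The median D1-alone peak lay at percentile 8.20 of the autosomal D1 list by −log10 q, and the strongest at percentile 54.6. A2a-alone peaks had a median −log10 q of 7.13, a median fold enrichment of 4.20 and a median width of 407 bp within their own list, which is not scaled to the D1 list.

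By −log10 q, 87 D1-alone peaks fell between 2 and 3, 322 between 3 and 5, 462 between 5 and 10, and 123 at 10 or more. D1-alone peaks made up 41.8% (35.3 to 48.6) of all 208 D1 peaks in the weakest group and 0.806% (0.676 to 0.961) of the 15263 in the strongest. The values came in steps: 93 D1-alone peaks shared the value 4.07, and the 994 peaks took 293 distinct values.

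**Figure D1:**
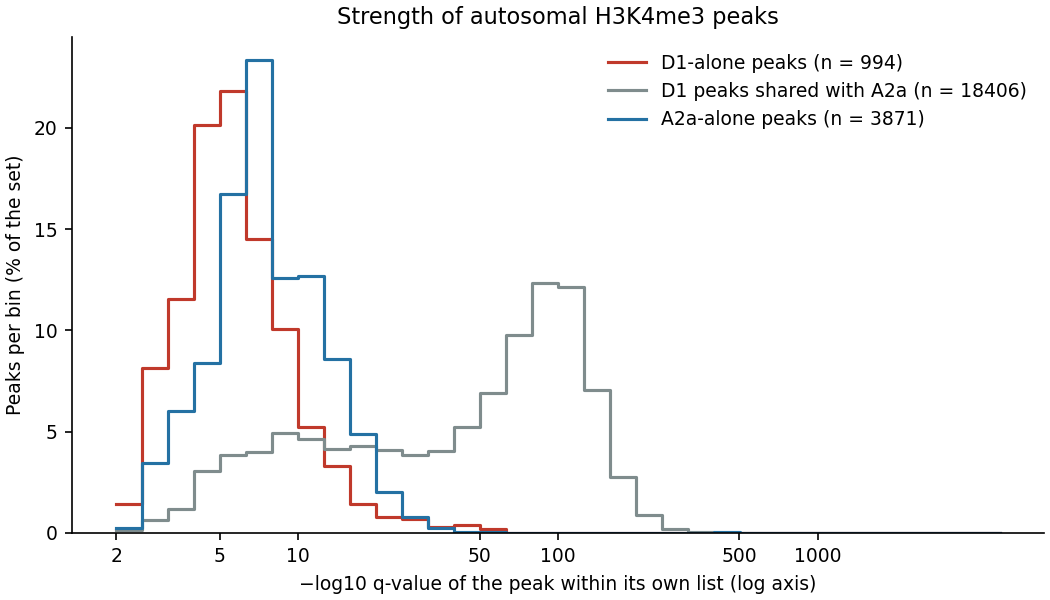
Share of each set of autosomal H3K4me3 peaks (vertical axis, %) by −log10 q within its own list (horizontal log axis), for 994 D1-alone, 18406 shared D1 and 3871 A2a-alone peaks. D1-alone peaks centred on a median of 5.42, A2a-alone peaks on 7.13 and shared D1 peaks on 54.2.

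At the edge of the rule, the D1-alone peaks closest to an A2a peak were separated from it by 6 bp (near Gm10812, −log10 q 4.80), 12 bp (near Gm25641, 3.27) and 28 bp (near Gm33630, 4.74). The shared D1 peaks with the smallest overlap shared 1 bp (near Caskin1, 2.83), 3 bp (near Gm10421, 2.50) and 3 bp (near AC122442.1, 7.33). The 3 values inside and the 3 outside overlapped.

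D1-alone peaks lay mostly away from TSSs. Of the 994, 74 (7.44%, 5.97 to 9.25) had their summit within 1 kb of the annotated 5′ end of a gene, against 57.4% of all autosomal D1 peaks. A further 286 (28.8%) lay at 1 to 10 kb, 560 (56.3%) at 10 to 100 kb and 74 (7.44%) beyond 100 kb. The median distance was 16773 bp for D1-alone peaks, 531 bp for shared D1 peaks and 10573 bp for A2a-alone peaks. Summits fell in introns for 488 peaks (49.1%), between genes for 358 (36.0%), in the window from 2 kb upstream to 1 kb downstream of a TSS for 95 (9.56%) and in other exons for 53 (5.33%).

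The difference in position was also read within groups of −log10 q. Among peaks with −log10 q of 5 to 10, 6.93% (4.95 to 9.61) of the D1-alone peaks and 23.9% (22.2 to 25.7) of the shared D1 peaks lay within 1 kb of a TSS. Among peaks at 10 or more, the shares were 15.4% (10.1 to 22.9) and 68.1% (67.4 to 68.9). The intervals of the D1-alone and shared D1 peaks did not overlap in any of the 4 groups. The strongest group has no upper bound, and its median −log10 q was 13.4 for D1-alone and 70.1 for shared D1 peaks. In narrower groups, the shares within 1 kb were 8.97% (4.42 to 17.4) and 27.7% (25.4 to 30.1) at 10 to 15, 20.6% (10.3 to 36.8) and 41.5% (39.5 to 43.5) at 15 to 30, and 45.5% (21.3 to 72.0) and 61.6% (59.8 to 63.4) at 30 to 60. The intervals overlapped at 30 to 60, where there were 11 D1-alone peaks. The A2a-alone peaks stood at 16.9% (15.4 to 18.6) and 23.9% (21.5 to 26.5) at 5 to 10 and at 10 or more. Beyond 10 kb of a TSS, D1-alone peaks ranged from 56.1% to 66.7% over the 4 groups, and shared D1 peaks stood at 48.8%, 51.5%, 50.8% and 15.2%, from the weakest group to the strongest.

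**Figure D2:**
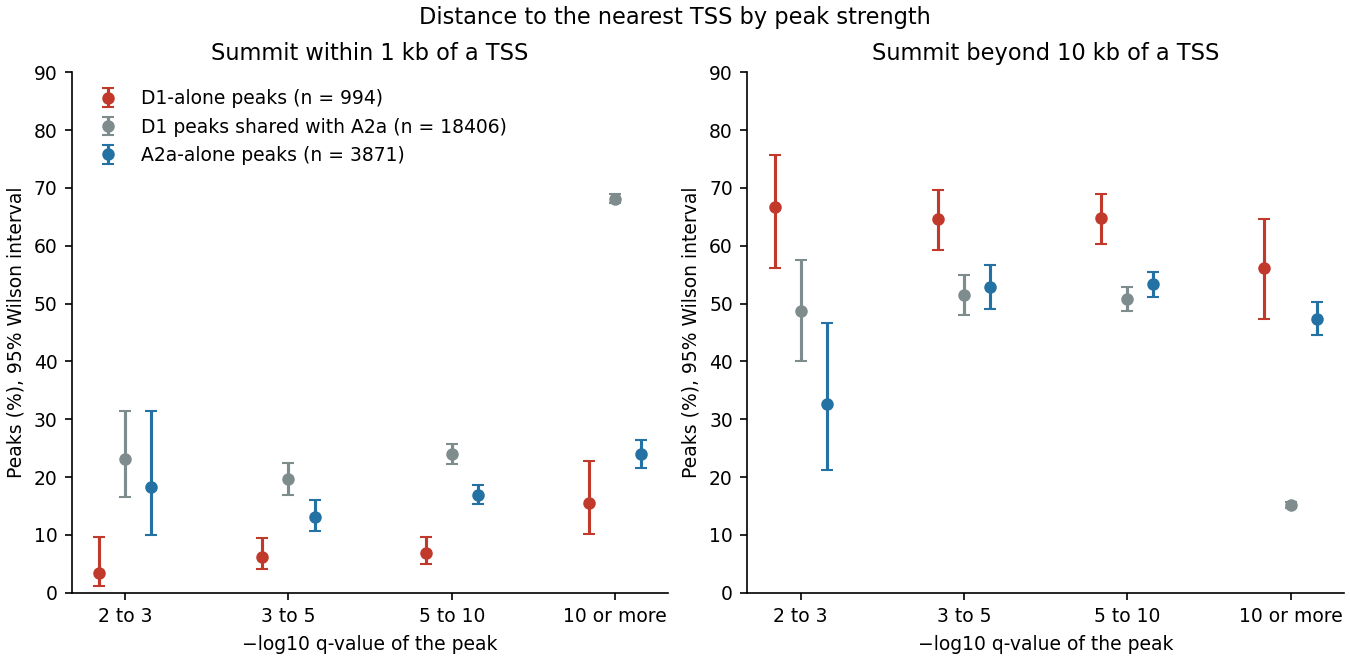
Share of peaks (vertical axis, %) with the summit within 1 kb (left) or beyond 10 kb (right) of a TSS, by −log10 q group (horizontal axis), with 95% Wilson intervals. The D1-alone points lie below the shared D1 points on the left and above them on the right in every group, from 3.45% against 23.1% to 15.4% against 68.1% on the left.

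Among the 74 peaks within 1 kb of a TSS, 36 had a protein-coding gene, 10 a lincRNA and 5 an antisense RNA as the nearest gene. The 8 strongest within 1 kb of a protein-coding TSS were at Dlx6, Ski, Bahcc1, Ccnyl1, Isl1, 2700062C07Rik, Ptms and Chd3. The peak at Dlx6, a homeodomain factor of forebrain GABAergic neurons, had a −log10 q of 42.5 and a fold enrichment of 2.23, with its summit 348 bp upstream of the TSS. The peak at Ski, a corepressor in TGF-β signalling, had a −log10 q of 34.6 and lay 634 bp upstream. The peak at Bahcc1, which encodes a BAH-domain chromatin protein, had a −log10 q of 32.6 and its summit 11 bp from the TSS. Each of the 3 stood beside an A2a peak, at 649, 593 and 891 bp. The strongest A2a peaks in these promoter windows had −log10 q of 77.8, 121 and 34.9, in the same order. The strongest D1 peaks there had 42.5, 67.0 and 32.6, in a list that is not scaled to the A2a list. The peak at Ccnyl1, a cyclin Y-like gene, had a −log10 q of 30.8 and its summit 324 bp downstream of the TSS, with an A2a peak 298 bp away. The processed transcript 2810408I11Rik started closer to this summit, at 120 bp. In the Ccnyl1 promoter window the strongest peaks had 199 in A2a and 131 in D1.

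The other promoters lay at varied distances from A2a peaks. At Isl1 the peak (−log10 q 30.2) began 384 bp from an A2a peak. The strongest peaks in the Isl1 window had 7.91 in A2a and 37.0 in D1. At Chd3, a chromatin remodeller of the NuRD complex, a peak with −log10 q of 20.6 lay 435 bp from an A2a peak. The strongest peaks in the Chd3 window had 88.6 in A2a and 20.8 in D1. Ptms, which encodes parathymosin, carried a peak with −log10 q of 22.4 whose nearest A2a peak was 1325 bp away. At 2700062C07Rik, with −log10 q of 24.2, the distance was 3003 bp. Neither Ptms nor 2700062C07Rik had an A2a peak in the promoter window.

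Counted by gene, 53 of the 20807 autosomal protein-coding genes had a D1-alone peak in the window from 2 kb upstream to 1 kb downstream of the TSS. Of these, 25 also had an A2a peak in the window and 28 did not. The 28 were led by Ebf1 (−log10 q 42.2), 2700062C07Rik (24.2), Ptms (22.4), Impg1 (11.0, a proteoglycan of the photoreceptor matrix), Pla2g2c (9.97, a secreted phospholipase) and Neurod6 (9.53). In these 28 windows, 16 held no H3K27me3 island, 7 held islands of both lists, 3 an A2a island alone and 2 a D1 island alone.

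Many D1-alone peaks had an A2a peak close by. An A2a peak lay within 1 kb of 101 of the 994 (10.2%, 8.43 to 12.2), within 10 kb of 366 (36.8%) and within 100 kb of 838 (84.3%). The median gap was 16999 bp. Of the A2a-alone peaks, 7.31% had a D1 peak within 1 kb, 31.8% within 10 kb and 86.4% within 100 kb. Of the 101, 66 also had a shared D1 peak within 1 kb, and thus stood beside a region marked in both lists. Of the 10 strongest D1-alone peaks, 7 had an A2a peak within 1 kb, and of the 50 strongest, 17 did. The strongest of all, with −log10 q of 58.4 and a fold enrichment of 4.18, lay 2128 bp upstream of Brox and 757 bp from an A2a peak. Brox encodes a BRO1-domain protein, and the strongest peaks in its promoter window had 373 in A2a and 288 in D1. Far from any A2a peak stood 5 D1-alone peaks with gaps over 1000 kb. The largest gap, 1458616 bp, belonged to a peak near the pseudogene Gm7508 (chr15:47330513-47330969) with a −log10 q of 14.2 and a fold enrichment of 6.21.

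Of the D1-alone peaks, 781 had no other within 100 kb, and 213 fell into 95 runs of 2 or more. The longest run had 7 members, and 4 runs had 4 members each. The run of 7 lay in 25473 bp at chr9:3004340-3029812, among Gm11168, Gm10720, Gm10719 and Gm10717. Its −log10 q values ranged from 7.45 to 43.3, and 7 shared D1 peaks stood between its members. A median of 88.5% of the 31-mers in its windows occurred elsewhere in the genome, and how reads were placed there was not tested.

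The 4 runs of 4 lay at Ebf1, at Isl1, near Drd1 and in Ambra1. At Drd1, the dopamine receptor gene that drives the Cre line used for these nuclei and a defining gene of direct pathway neurons, the 4 peaks lay 170, 180, 190 and 277 kb from the TSS (chr13:53777841-53886336). Their −log10 q values were 8.82, 4.74, 4.07 and 4.07, in the same order. Drd1 was the nearest protein-coding gene of each, the nearest A2a peaks were 167 to 274 kb away, and each overlapped an A2a H3K27me3 island. The closest to the TSS also overlapped a D1 island. In Ambra1, an autophagy gene, the run lay at chr2:91779375-91900306 with −log10 q of 7.61, 9.77, 5.42 and 3.44, and none of its peaks overlapped an island. For the last 2 of these the nearest protein-coding TSS was that of Chrm4, the muscarinic M4 receptor gene, at 48.0 and 27.1 kb.

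Ebf1 and Isl1 each held several D1-alone peaks. Ebf1 (chr11:44617317-45008091, plus strand) held 5 D1-alone peaks and no shared D1 peak in its body. Their summits lay 0.056, 1.10, 2.64, 26.2 and 237 kb downstream of the TSS, and their −log10 q values were 16.2, 42.2, 39.0, 11.7 and 2.24. From 50 kb upstream to 450 kb downstream of the TSS there was 1 A2a peak. It lay 6.11 kb upstream of the TSS with a −log10 q of 6.41, and a shared D1 peak of 6.94 overlapped it.

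H3K27me3, which the rule did not use, differed between the lists over the same gene. A2a islands covered 92.8% of the 391 kb gene body, in 19 islands with 97.4 reads per kb. D1 islands covered 4.04%, in 5 islands with 33.9 reads per kb. All 3 peaks nearest to the TSS lay in 1 A2a island of 70800 bp with 10008 reads. In D1, the first of them overlapped an island of 1400 bp with 61 reads, and the other two an island of 1800 bp with 79 reads. Read counts are not scaled between the lists. Over the autosomes, A2a islands covered 12.1% and D1 islands 7.43%. The paper reports greater global H3K27me3 signal in A2a than in D1 before normalization between cell types. It proposes sources other than biological variation for this. How much of the difference at Ebf1 goes with it was not tested.

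At Isl1 (chr13:116298281-116309689, minus strand), 4 D1-alone peaks lay 0.748, 6.63, 8.45 and 12.2 kb downstream of the TSS, with −log10 q of 30.2, 5.01, 6.41 and 6.42. Here the promoter was marked in both lists: the D1 peak at the TSS had a −log10 q of 37.0 and the A2a peak that it overlapped 7.91. A2a islands covered all of the gene body in 1 island of 31200 bp with 212 reads per kb, and D1 islands covered 59.7% in 3 islands with 40.2 reads per kb.

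A further pair of D1-alone peaks lay 396 and 403 kb upstream of Isl1, near the lincRNA Gm47914 (chr13:116705667-116706861 and chr13:116711460-116712416). Their −log10 q values were 52.3 and 26.6 and their widths 1195 and 957 bp. Between them lay a shared D1 peak with a −log10 q of 43.2, which overlapped an A2a peak of 2.73. Both overlapped an A2a island of 25600 bp with 159 reads per kb and a D1 island of 9000 bp with 45.2 reads per kb. The nearest protein-coding TSS, that of Parp8, was 319503 and 313335 bp away.

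**Figure D3:**
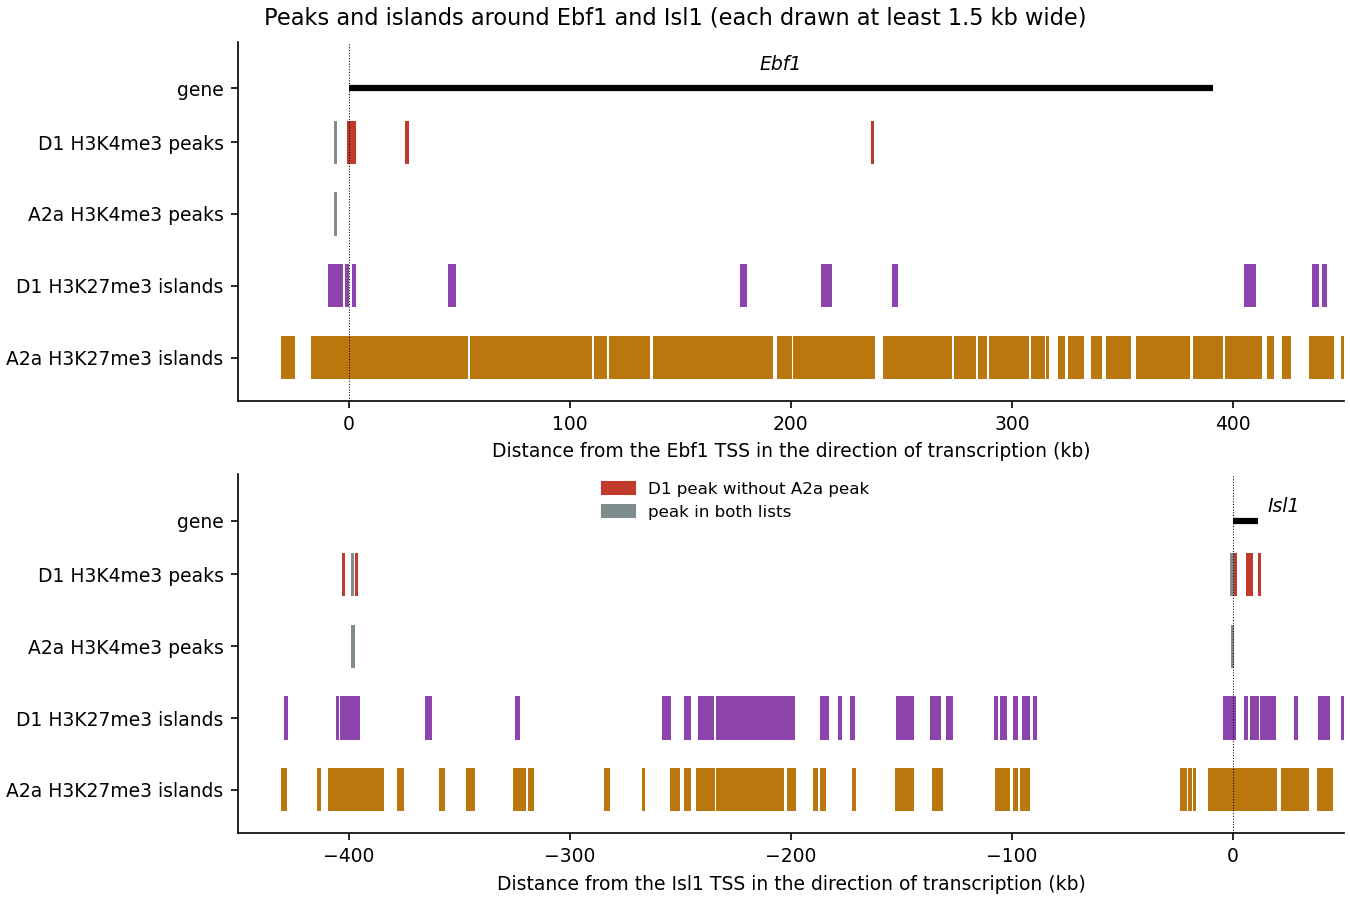
H3K4me3 peaks and H3K27me3 islands of the D1 and A2a lists around Ebf1 (top) and Isl1 (bottom), with distance from the TSS in the direction of transcription on the horizontal axis (kb) and 1 row per list. D1-alone peaks (red) cluster at the 5′ end of Ebf1, where A2a islands covered 92.8% of the gene body and D1 islands 4.04%, and stand both in Isl1 and 396 to 403 kb upstream of it.

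The other distal peaks named by strength lay at varied places. A pair 375 bp apart on chromosome 2 (chr2:116394899-116396653 and chr2:116397029-116397474) had −log10 q of 25.2 and 25.4 and nearest A2a peaks at 20941 and 20120 bp. Their nearest gene was the pseudogene Gm13991, and their nearest protein-coding TSS, that of the striatal homeodomain gene Meis2, was 330137 and 331413 bp away. A peak in an intron of Arl15, a small GTPase gene, had a −log10 q of 15.1 and a fold enrichment of 6.42, and its nearest A2a peak was 32109 bp away. A peak near the pseudogene Vmn1r-ps2 on chromosome 4 had 27.6 and 8.34, with the nearest A2a peak 483093 bp away. Of the bases in its window, 86.7% were soft-masked in the reference, the mark of repeats, and how reads were placed there was not tested. The highest fold enrichment of all D1-alone peaks, 12.4, was at Sfi1, a centrosome gene, where −log10 q was 45.9. In the Sfi1 window, 40% of the 31-mers occurred elsewhere in the genome and 91.7% of the bases were soft-masked.

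D1-alone peaks overlapped H3K27me3 islands in smaller shares than D1 peaks at large. A D1 island was overlapped by 50 of the 994 (5.03%, 3.84 to 6.57), against 9.29% of all autosomal D1 peaks. An A2a island was overlapped by 78 (7.85%, 6.33 to 9.69), against 13.3%. The islands themselves covered 7.43% of the autosomes in D1 and 12.1% in A2a. For A2a-alone peaks the shares were 19.3% (18.1 to 20.5) and 24.4% (23.1 to 25.8). In classes, 909 D1-alone peaks (91.4%) overlapped no island, 43 overlapped islands of both lists, 35 an A2a island alone and 7 a D1 island alone.

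The shares depended on strength and on position. With −log10 q of 5 to 10, 5.19% (3.52 to 7.61) of the D1-alone peaks and 18.4% (16.9 to 20) of the shared D1 peaks overlapped a D1 island, and 7.36% (5.31 to 10.1) and 23.3% (21.7 to 25.1) an A2a island. At 10 or more, the D1-alone shares of 8.94% (5.07 to 15.3) and 13.8% (8.81 to 21.0) could not be told from the 7.57% (7.16 to 8.0) and 11.5% (11 to 12) of shared peaks. This group too mixed different strengths. At 10 to 15, 1 of 78 D1-alone peaks (1.28%, 0.227 to 6.91) and 18% (16.1 to 20.1) of shared D1 peaks overlapped a D1 island. At 30 to 60 the shares were 5 of 11 (45.5%, 21.3 to 72.0) and 10.0% (8.97 to 11.2). The 5 were the peaks at Isl1, at Sfi1 and near Gm47914, and a pair at Ebf1 that shared a D1 island. The interval treats them as separate, though they came from few loci. Within 1 kb of a TSS, 14 of 74 D1-alone peaks (18.9%, 11.6 to 29.3) overlapped a D1 island, above the 10.2% (9.61 to 10.7) of shared peaks and below the 47.3% (43.6 to 50.9) of A2a-alone peaks there. At 10 to 100 kb the D1-alone share of 3.21% (2.04 to 5.02) was below both the 7.42% (6.61 to 8.31) of shared and the 11.0% (9.62 to 12.5) of A2a-alone peaks.

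**Figure D4:**
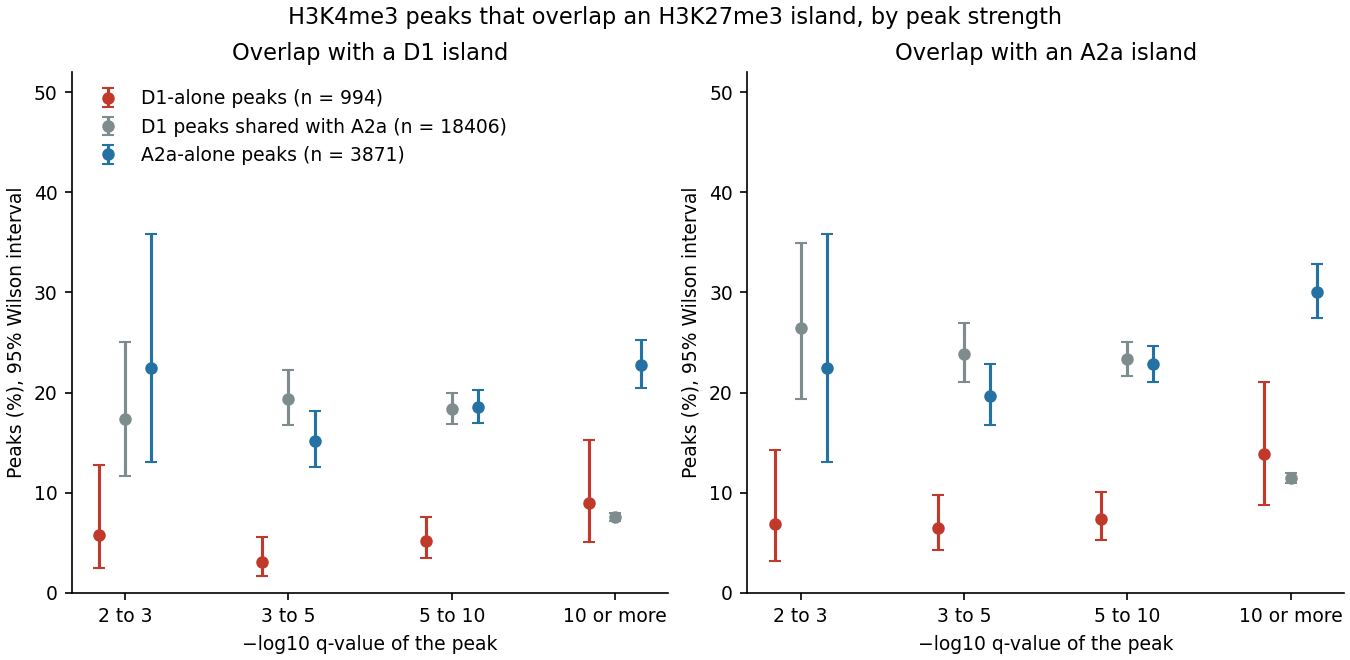
Share of H3K4me3 peaks (vertical axis, %) that overlap a D1 (left) or an A2a (right) H3K27me3 island, by −log10 q group (horizontal axis), with 95% Wilson intervals. Below 10, the D1-alone points lie between 3.11% and 7.36% and under the shared D1 and A2a-alone points, whereas at 10 or more their intervals include the shared values of 7.57% and 11.5%.

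Where a D1-alone peak lay in islands of both lists, the A2a island was the longer for 39 of 43. The medians were 15400 bp in A2a and 4800 bp in D1. Among shared D1 peaks in both islands, the A2a island was the longer for 1294 of 1633 (79.2%), with medians of 9200 and 6000 bp. Both counts were per peak, so peaks in the same island were counted separately. Among the 43, peaks at Ebf1 shared an A2a island of 70800 bp and peaks at Isl1 an A2a island of 31200 bp. The pair near Gm47914 shared an A2a island of 25600 bp. The counts and medians per island were not computed. The strongest peak in an A2a island alone was at Dlx6, and a peak in the orphan receptor gene Gpr139 (−log10 q 14.7) was also among the 3 strongest of these. At Dlx6 the nearest D1 island was 100 bp from the peak. The 3 strongest in a D1 island alone were at Sfi1, near Gm22213 (16.1) and upstream of the integrin gene Itga4 (8.38). The D1 islands at Sfi1 and Gm22213 were 400 bp long each, with 54 and 59 reads, and 51.5% of the 31-mers in the Gm22213 window occurred elsewhere in the genome.

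The gene lists placed these peaks among markers of striatal and other cells. Over all 20807 autosomal protein-coding genes, 508 (2.44%) held a D1-alone peak in the gene body, and these genes were long, with a median of 99.4 kb against 17.6 kb for all. Of 16 direct pathway genes, 5 held one, among them Ebf1, Isl1, Sfxn1 (−log10 q 6.21) and Gnal (7.56). Of 15 indirect pathway genes, 1 did, the homeobox gene Six3 (13.1). Of 16 projection neuron genes, 4 did, namely Meis2 (5.30), Foxp1 (5.56, the highest of 3 peaks), Bcl11b (7.28) and Pde10a (3.99). Ion channel and receptor genes gave 4 of 24, among them Kcnh7 (4.53), Scn1a (13.4) and Kcnn2 (11.0), and axon guidance and adhesion genes 2 of 24 (Ntng1 and Epha3, both 6.13). Lists for other cells gave 3 of 16 cortical excitatory genes (Tbr1, Neurod6 and Lmo3, from 5.10 to 9.53) and 2 of 15 oligodendrocyte genes (Ermn and Mag). They gave 1 of 16 astrocyte genes (Slc4a4, 8.62), 1 of 16 microglia genes (P2ry12, 6.13), and none of 16 striatal interneuron or 16 endothelial and mural genes. The paper describes the expression of Neurod6 as D1-specific, so a list does not fix the cell of origin.

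In the promoter window, the list genes with a D1-alone peak were Ebf1, Isl1, Neurod6, Ermn and Mag. These were 2 of 16 direct pathway, 1 of 16 cortical excitatory and 2 of 15 oligodendrocyte genes, and the other lists had none. Over all autosomal protein-coding genes the share was 53 of 20807 (0.255%). Neurod6, a bHLH factor listed here under cortical excitatory neurons, had a peak of 296 bp with its summit 39 bp from the TSS. The peak lay in islands of both lists, and its nearest A2a peak was 101290 bp away. The paper links D1-specific expression of Neurod6 to H3K4me3 depleted in D1 relative to A2a. The peak lists at this promoter had the opposite direction, with a D1 peak of −log10 q 9.53 and no A2a peak in the window. The paper's comparison of signal was not repeated here. Ermn, a cytoskeletal gene of oligodendrocytes, had a peak with −log10 q of 5.09 at 50 bp from the TSS, and its nearest A2a peak was 1546 bp away. Mag, myelin-associated glycoprotein, had a peak of 3.87 at 1047 bp, 206 bp from an A2a peak that lay outside the window.

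Markers of other cells were read over whole lists. Of all autosomal protein-coding genes, 56.8% had a D1 peak and 59.3% an A2a peak in the promoter window. A D1 peak of any kind stood in the window of 8 of 15 oligodendrocyte genes, 9 of 16 astrocyte genes, 1 of 16 microglia genes, 1 of 16 striatal interneuron genes, 9 of 16 cortical excitatory genes and 3 of 16 endothelial and mural genes. In the A2a list the counts were 9, 12, 9, 1, 8 and 4. No D1 peak stood at Gfap, Csf1r, Cx3cr1, C1qa, Aif1, Mog, Mobp, Sst, Pvalb or Chat, whereas Mbp had one with a −log10 q of 104 and the cortical marker Slc17a7 one of 13.4. Their part in the D1-alone peaks was not tested. For the neurons themselves, 15 of 16 direct pathway and 14 of 15 indirect pathway genes had a D1 peak in the window, and 14 of each list had an A2a peak.

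The DNA under D1-alone peaks was poorer in GC and CpG than under shared peaks. The median GC content of the 300 bp windows was 45% (95% interval of the median 44.3 to 45.7), against 59.7% for shared D1 and 49.7% for A2a-alone peaks. The median ratio of observed to expected CpG was 0.278 against 0.674 and 0.346. Windows with at least 50% GC and a ratio of at least 0.6 made up 4.63% (3.49 to 6.12) of D1-alone and 53.8% (53.1 to 54.5) of shared D1 peaks. Within 1 kb of a TSS, they made up 28.4% (19.4 to 39.5) and 74.1% (73.2 to 74.9). With −log10 q of 5 to 10, median GC was 44.7% for D1-alone, 50.7% for shared D1 and 49.7% for A2a-alone peaks.

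**Figure D5:**
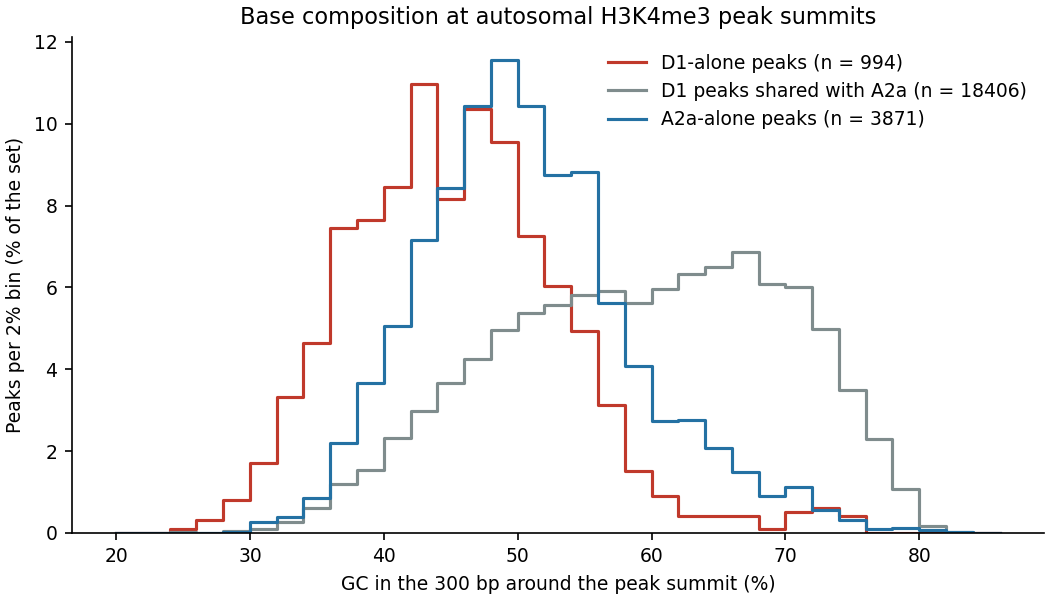
GC content of the 300 bp around peak summits (horizontal axis, %) as the share of each set per bin (vertical axis, %). D1-alone peaks centred on 45%, A2a-alone peaks on 49.7% and shared D1 peaks on 59.7%.

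Of the 7 short motifs searched, the pattern TGANTCA, used for AP-1, was the 1 whose D1-alone and shared D1 intervals did not overlap among windows of 40 to 50% GC. For the other 6 they overlapped. In TGANTCA, N stands for any base, so the pattern is wider than an AP-1 site with C or G there. The forms were not counted apart. A match to TGANTCA on either strand was found in 169 D1-alone windows (17.0%, 14.8 to 19.5), against 6.63% of all autosomal D1 windows. In that GC range, the shares were 17.6% (14.4 to 21.3) for D1-alone, 12.5% (11.4 to 13.7) for shared D1 and 12.5% (11.0 to 14.2) for A2a-alone peaks. AAAATAG, part of a MEF2 site, was found in 12.6% of D1-alone and 3.93% of all D1 windows, but in 10.2% (7.76 to 13.2) and 8.64% (7.73 to 9.64) of D1-alone and shared windows of 40 to 50% GC. GGGCGG, the GC box, was found in 9.96% against 41.1%, and in that GC range in 6.14% (4.31 to 8.68) against 8.10% (7.22 to 9.07). AGGGGGC (part of a CTCF site) was found in 4.73% of D1-alone windows and 10.1% of all, TGACGTCA (CRE) in 0.704% and 1.35%, GCATGCGC (NRF1) in 0.503% and 2.37%, and GCGNGGGCG (EGR) in 0.905% and 6.31%. The letters GGGCG are common to the GC box and the EGR motif, so their matches can overlap. A match is a description of letters and not of binding.

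By exact 31-mers, repeated sequence accounted for few of the peaks. In 18 windows (1.81%, 1.15 to 2.84), at least 50% of the 31-mers occurred elsewhere in the genome, and 8 of these were on chromosome 9. In 882 windows (88.7%), no 31-mer was repeated. These 31-mer shares were computed for D1-alone peaks only. By soft-masking, a wider measure of repeats, at least 50% of the window was masked in 3.82% (2.80 to 5.20) of D1-alone peaks. The share was 0.560% of shared D1, 0.727% of all autosomal D1 and 1.14% of A2a-alone peaks. By chromosome, D1-alone peaks made up from 2.37% of the D1 peaks on chromosome 19 and 2.94% on chromosome 7 to 7.90% on chromosome 3.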

How the data were processed

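CnR libraries for H3K4me3 and H3K27me3 were analysed as the lists that the authors deposited, 1 per cell type and mark. The members and gene lists were chosen with earlier results of these data known. Per the submitters' processing notes and the methods, reads were mapped to mm10 with Bowtie2 (version 2.1.0) and SAMtools (version 0.1.19), and kept at a mapping quality of at least 20. For H3K4me3, the authors ran MACS2 on pooled replicates (q-value threshold 0.01). The deposited values used were the fold enrichment (a ratio) and the −log10 q-value, and the deposited score was not used. For H3K27me3, the authors ran SICER (window 200 bp, gap 600 bp, FDR 0.01) against a control not named in the sources used here, and the deposited count is of reads per island, without normalization. Per the methods, duplicate removal and selection by insert size came before downstream analyses. Weak peaks lie near the threshold, so absence from a list depends on depth.

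Overlap meant at least 1 shared base. TSSs were the 5′ ends of 55450 GENCODE vM21 genes, 21951 of them protein-coding. Named were the 8 strongest members within 1 kb of a protein-coding TSS, the 4 strongest in each more distant group, list genes with a promoter member, the 3 strongest members in an island of either list alone, the runs with most members (5, since 4 tied), and the members nearest to and farthest from an A2a peak. Impg1 and Pla2g2c, the other list genes with a member in the body, marker genes without one, and the narrower groups of strength above a −log10 q of 10 were chosen after their values were seen. Some genes and sequences that these rules name are not reported here. No test compared conditions. The procedure was tested on simulated lists, where all 400 simulated D1-alone and 3000 shared peaks were recovered. Python (version 3.11.15), numpy (version 2.4.6), pandas (version 2.3.3), scipy (version 1.17.1) and matplotlib (version 3.10.9) were used. The other 20 samples were not analysed here.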

Additional observations from a re-analysis of the deposited data

How the results depend on the processing

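The 6 results were recomputed under 35 alternatives, of which 27 stayed within the interval of the reported share or median, or within 1.5 times the count, and 8 did not. The count of 994 became 585 with D1 peaks limited to a −log10 q of 5 or more, and 1607 with the A2a list shortened from its weak end to the size of the D1 list. The share within 1 kb of a TSS, 7.44%, became 12.3% with the TSSs of all transcripts, 3.72% with protein-coding genes only and 5.49% when an A2a peak within 1 kb counted as overlap. The share beyond 10 kb, 63.8%, became 51.6%, 79.7% and 68.1% under the same settings. Leaving out the 18 peaks of repeated sequence, an alternative chosen after seeing the data, left 976 and moved none of the 6 results. The shares in H3K27me3 islands and the median GC content moved under none of the alternatives run. Causes of these changes were not tested beyond what each setting itself changes. No paired analysis was possible because each list pools its replicates. Leaving out a replicate was not possible for the same reason. The unknown depth limits every absence of a peak or island.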
